A study of Mus musculus with 4 samples.

Results

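The respiratory chain of the inner mitochondrial membrane was followed through 95 nuclear gene rows of 31053 in mouse liver single-cell RNA libraries. The rows were taken by symbol: names starting with Nduf, Uqcr or Atp5, or with Cox followed by a digit from 4 to 8, together with Sdha, Sdhb, Sdhc, Sdhd, Cycs and Cyc1. They comprised 36 rows for complex I, 4 for complex II, 9 for complex III, cytochrome c (Cycs), 20 for complex IV and 16 for the ATP synthase (complex V). The rule also brought in 8 complex I assembly factors (Ndufaf genes) and the ATP synthase factor Atp5s, which are not subunits. Ndufa4 and its relative Ndufa4l2 carry complex I names and were counted with complex IV, where Ndufa4 is now placed. Cox7a2l, a factor of respiratory supercomplexes rather than a usual subunit, was also counted with complex IV and is part of its sums. In the kept cells of all libraries together, 91 rows had at least 50 UMIs (unique molecular identifiers, each a counted RNA molecule). Cox7b2, Cox8c and a second Atp5o row had 0 UMIs and Cox8b had 7.

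There were 4 libraries, each the only one of its group, so no test between groups was possible and all intervals cover counting error only. The groups crossed the genotype labels KO and WT of Mef2d, a MADS-box transcription factor, with premalignant liver and early hepatocellular carcinoma (eHCC). Dissociated tissue was read with 10x Genomics 5' chemistry. The labels leave out how many animals were used, their strain and age, which part of Mef2d is deleted and in which cells. Mef2d itself was not lower under the KO label: it had 101 and 72.2 CPM (counts scaled to a fixed total of UMIs per class and library) in the libraries labelled KO and WT at the premalignant stage, and 96.4 and 61.3 CPM at eHCC. 5' reads outside a deleted part would check nothing, and every direction below refers to the libraries as labelled.

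Values of the 4 libraries are given throughout with the premalignant pair before the eHCC pair, and KO before WT in each. The libraries held 9672, 14167, 10686 and 11022 barcodes, of which 8796, 12229, 8382 and 9487 were kept. Median depth in the kept cells was 4305.5, 4641, 7268 and 8316 UMIs. Any pair of libraries shared 19 to 33 kept barcode sequences. Cells were clustered without the members and without the mitochondrially encoded mt- genes. Clusters were called "X-like" from marker genes. LSEC-like stands for liver sinusoidal endothelium, pDC-like and cDC-like for plasmacytoid and conventional dendritic cells, NK-like for natural killer cells and phagocyte-like for monocytes and macrophages. The hepatocyte-like class held 24, 75, 31 and 64 cells. Cluster 5, best matched by hepatocyte markers but left unnamed for its low depth, held a further 925 and 852 barcodes of the premalignant libraries (10.5% and 6.97% of those kept) and 2 and 2 at eHCC. Comparisons between libraries were made only where a lineage had at least 100 cells in both.

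Complex I (NADH dehydrogenase) and complex II (succinate dehydrogenase) feed electrons into ubiquinone. Complex III passes them to cytochrome c, complex IV (cytochrome c oxidase) hands them to oxygen, and the proton gradient drives the ATP synthase. Most subunits are encoded in the nucleus, while the mitochondrial genome encodes core subunits of complexes I, III, IV and V but none of complex II. Several complex IV subunits exist as a common and a tissue-restricted isoform. Nuclear respiratory factor 1 (NRF1) and GABPA are known regulators of many of these nuclear genes, and CREB is a known activator of the cytochrome c gene.

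Promoters are shown first for a pair of members to which the results return, Cox6a1, the common isoform beside the restricted Cox6a2, and Cycs. Of the 95 rows, 76 matched the RefSeq table of promoters (GRCm38.p6) at 75 distinct genes, both Atp5o rows sharing 1. A window ran from 250 bases before to 50 after a start, and some genes had more than 1 window. A gene was counted where any of its windows held the motif. The NRF1 motif, GCGCA then any base then GCGC, was found on either strand in 19 of the 75 genes (25.3%), against 5.19% of 27025 genes. The palindromic CREB site TGACGTCA was in 5 (6.67%, against 2.03%) and the GABPA motif CCGGAAGT in 5 (6.67%, against 4.31%). An E-box CAGCTG was in 6 (8.0%, against 18.3%). The MEF2 consensus was in 0 of 75, against 3.70% of all genes. None of these motifs contains another, and a match describes the letters only. The 250 bases before the start are printed 5' to 3' on the gene's strand, with the matches in capitals. Those of Cox6a1 are the minus strand of chr5:115348959-115349208 and hold a pair of NRF1 matches.
Cox6a1: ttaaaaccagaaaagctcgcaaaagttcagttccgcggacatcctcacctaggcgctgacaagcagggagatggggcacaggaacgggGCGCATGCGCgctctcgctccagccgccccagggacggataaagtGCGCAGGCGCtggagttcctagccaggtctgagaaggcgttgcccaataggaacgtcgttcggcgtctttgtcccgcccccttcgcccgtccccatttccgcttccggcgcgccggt
Those of Cycs are the minus strand of chr6:50566570-50566819 and hold a CREB site.
Cycs: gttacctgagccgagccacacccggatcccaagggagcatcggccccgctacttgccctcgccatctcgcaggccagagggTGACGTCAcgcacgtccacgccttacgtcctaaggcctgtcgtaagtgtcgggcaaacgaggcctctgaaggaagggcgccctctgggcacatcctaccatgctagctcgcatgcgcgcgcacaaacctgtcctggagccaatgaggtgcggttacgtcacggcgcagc

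The summed level of the members was 12074, 13708, 12958 and 12529 CPM in B-like cells, the lowest of the lineages with at least 100 cells in every library, and 15160, 16627, 18335 and 16836 CPM in T-like cells. NK-like cells had 17861, 19250, 20171 and 17385 CPM, and phagocyte-like cells 18197, 18905, 21028.5 and 17461 CPM. B-like cells were thus lowest in each library, whereas T-like, NK-like and phagocyte-like levels overlapped across libraries. LSEC-like cells had 17128 and 18782 CPM in the premalignant libraries, and pDC-like cells ranged from 19226 to 21864 CPM over the 4 libraries. Small epithelial classes had 38034, 30563, 25441 and 25450 CPM (hepatocyte-like) and 31081 and 27827 CPM (cholangiocyte-like of the premalignant libraries, 53 and 36 cells). In the KO eHCC library cycling T-like and cycling NK-like cells were above the hepatocyte-like ones, at 27200 and 27053 CPM. Erythroid-like cells of eHCC, at 2188 and 2454 CPM, had the lowest values of the named classes with at least 20 cells, and neutrophil-like cells had 8275 to 13625 CPM. CPM are shares of a total, and haemoglobin genes led the erythroid-like cluster. The ratio of member to mt- UMIs in erythroid-like cells of eHCC was 0.343 and 0.215, beside 0.470 and 0.291 in T-like cells. The part of haemoglobin RNA in the low CPM was not tested.

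**Figure D1:**
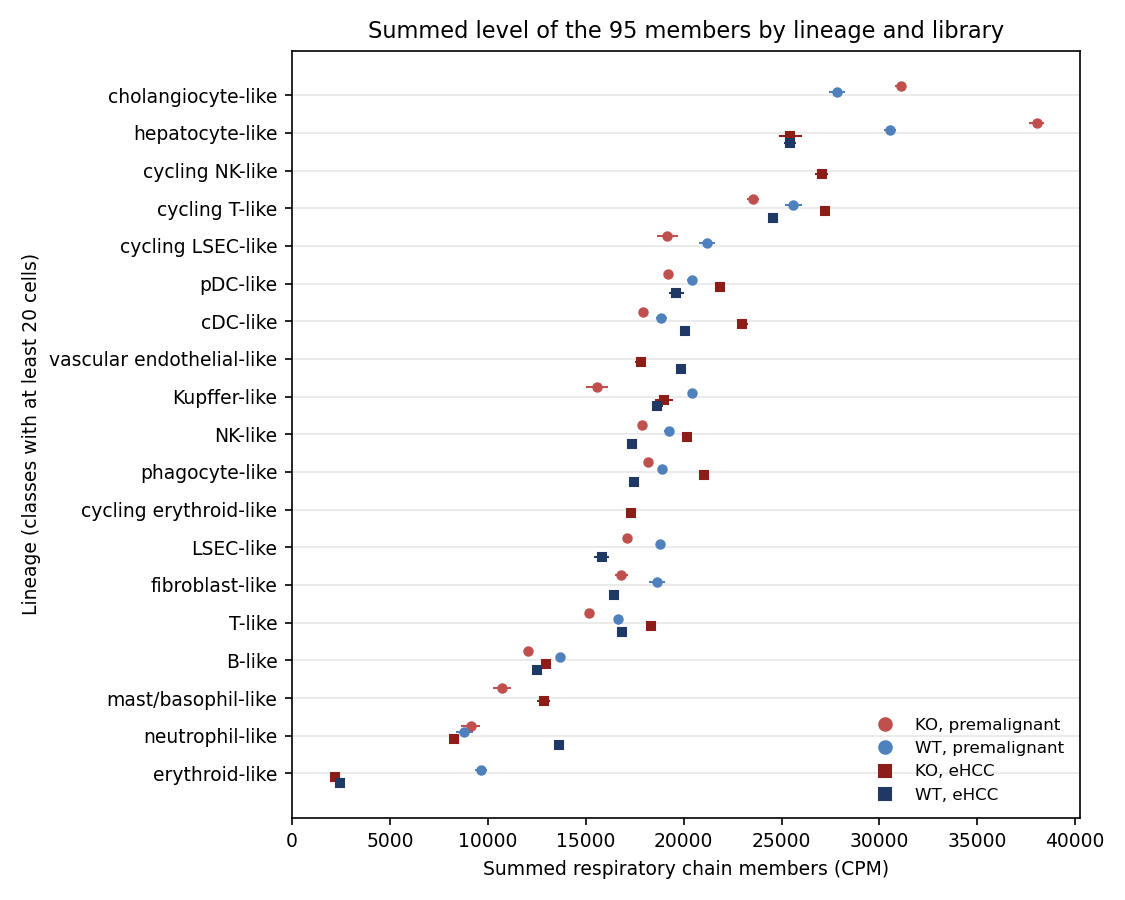
Summed level of the 95 members in CPM (horizontal axis) for each named lineage with at least 20 cells (vertical axis), with a point for each library and bars for the exact 95% Poisson interval. B-like cells lie between 12074 and 13708 CPM, cycling T-like cells between 23530 and 27200 CPM, and erythroid-like cells of eHCC at 2188 and 2454 CPM.

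In each library, all 5 complexes were lower in B-like than in T-like and lower in T-like than in cycling T-like cells. For complex I, the largest complex, the sums in B-like cells were 3322, 3750, 3316 and 3450 CPM and in cycling T-like cells 5884.5, 6655, 7066 and 6397 CPM. Complex IV had 3282, 3736, 3809 and 3700 CPM in B-like and 6973, 7647, 8104 and 7403 CPM in cycling T-like cells. Cycling T-like cells, defined by T cell and proliferation markers, were higher than the other T-like cells within each library by 1.55-, 1.54-, 1.48- and 1.46-fold for the summed members. Of the members with at least 50 UMIs, 81 of 86, 78 of 86, 82 of 87 and 80 of 86 were higher in cycling cells, where 43.8% to 48.2% of all genes were. For the mt- genes the log2 ratios of cycling to other T-like cells were -0.13, -0.20, 0.05 and -0.16. Cycling cells were deeper, with a median of 15088.5 UMIs against 4380 in the KO premalignant library.

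The spread of each member was taken over B-like, T-like, NK-like and phagocyte-like cells. LSEC-like and pDC-like cells were added at the premalignant stage and cycling T-like cells at eHCC. Over these, the median member differed 1.79- to 2.32-fold between its highest and lowest lineage. Restricted isoforms of complex IV spread more widely. Cox6a2, the isoform known from heart and skeletal muscle, had 1362, 1310, 1222 and 1118 CPM in pDC-like cells. It was detected in 136 of 142, 126 of 132, 85 of 88 and 46 of 51 pDC-like cells, at median depths of 9350.5, 8840.5, 12939 and 10937 UMIs. In LSEC-like cells it was detected in 0.739% and 0.468% of premalignant cells, at median depths of 4892 and 6447 UMIs, and in phagocyte-like cells of eHCC in 1.71% and 4.22%, at 12899 and 15132 UMIs. All 4 pDC-like values lay above those of every other class, the highest of which was 59.4 CPM in cycling T-like cells of the KO premalignant library. The 50 Cox6a2 UMIs of NK-like cells in the KO premalignant library lay mostly in 1 cell, which held 36 of them, so the ratio to the WT library (log2 3.38, 50 against 3 UMIs) rests on that cell.

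Of the other restricted isoforms, Cox7a1, known from muscle and brown fat, had 210 and 91.3 CPM in the cholangiocyte-like cells of the KO and WT premalignant libraries, with UMIs in 33 of 53 and 19 of 36 cells. In hepatocyte-like cells Cox7a1 had 6.75 to 11.3 CPM. Ndufa4l2, a known target of hypoxia-inducible factor, had 235 CPM in fibroblast-like cells of the WT eHCC library (214 UMIs, 20 of 45 cells), against 8.71 and 7.24 CPM in the premalignant libraries (5 and 3 UMIs). In hepatocyte-like cells of the KO eHCC library it had 38 UMIs, 17 of them in 1 of 31 cells. Cox4i2, the isoform known from lung and from hypoxia, had 29.7 CPM in the same WT eHCC fibroblast-like cells (27 of that library's 72 UMIs). A further 32 of those UMIs, and 43 of the 57 in the KO eHCC library, lay in phagocyte-like cells, at 0.71 and 3.42 CPM. Cox6b2, known from testis, had 93.1 CPM in cycling erythroid-like cells of the KO eHCC library (186 of 523 UMIs, 54 of 154 cells). Phagocyte-like cells held 98 of these Cox6b2 UMIs and 543 of the 777 in the WT eHCC library, at 7.78 and 12.1 CPM, so that neither isoform was limited to a small class.

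**Figure D2:**
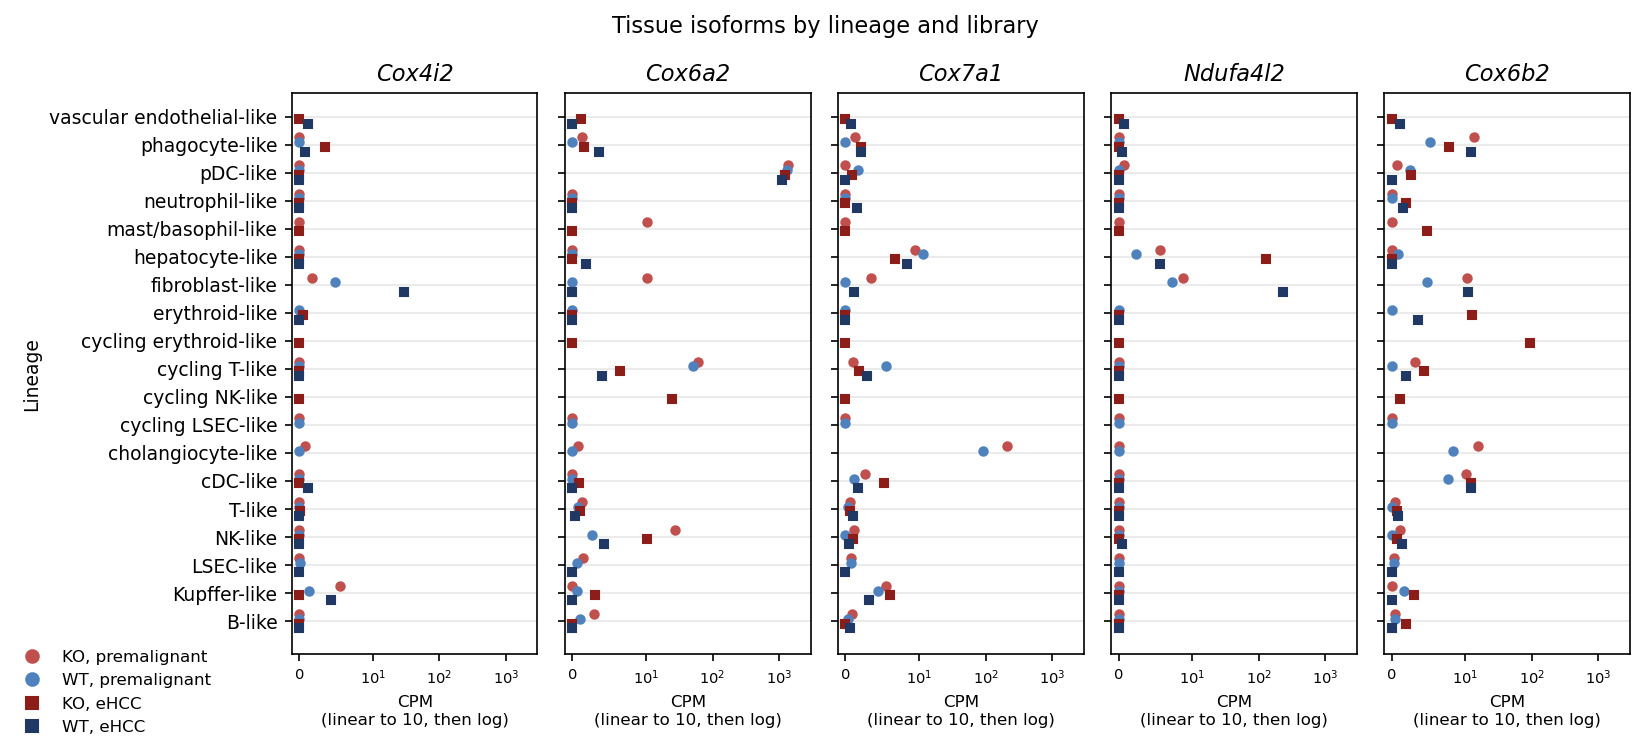
Levels in CPM (horizontal axis, linear up to 10 and logarithmic above) of 5 restricted isoforms by lineage (vertical axis), with a point for each library. Cox6a2 lies between 1118 and 1362 CPM in pDC-like cells, Cox7a1 reaches 210 CPM in cholangiocyte-like cells and Ndufa4l2 reaches 235 CPM in fibroblast-like cells.

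At the premalignant stage, the members were slightly lower in the library labelled KO than in the one labelled WT in each of the 6 lineages compared. The log2 ratio of the summed members was -0.18 in B-like cells (95% interval -0.20 to -0.17), -0.13 in LSEC-like (-0.14 to -0.13), -0.13 in T-like (-0.14 to -0.12), -0.11 in NK-like (-0.13 to -0.08), -0.09 in pDC-like (-0.11 to -0.06) and -0.06 in phagocyte-like cells (-0.08 to -0.03). The direction in phagocyte-like cells turned (0.03) when each cell was thinned to 1000 UMIs, in 1 random draw. Single members were below 0 in 72 of 86 tested in B-like, 77 of 86 in LSEC-like, 78 of 86 in T-like, 64 of 82 in NK-like, 63 of 81 in pDC-like and 56 of 81 in phagocyte-like cells. The median of all genes lay above 0 in these 6 comparisons, between 0.00 and 0.10, and between 50.5% and 58.9% of genes were above 0. Among genes with at least 500 UMIs in both libraries together, the median was 0.05 in B-like, 0.04 in LSEC-like and 0.10 in T-like cells. It was below 0, as for the members, in NK-like (-0.02), pDC-like (-0.01) and phagocyte-like cells (-0.0035). Medians of members with that count were -0.18, -0.15, -0.14, -0.11, -0.10 and -0.06 in the same order. Of the 80 members tested in all 6 lineages, 38 were below 0 in each (47.5%), where 14.7% of the 4682 genes so tested were. Agreement of sign across lineages depends on the UMI count as well, and shares among genes with like counts were not taken. The cytosolic ribosomal protein genes, summed, moved with the members in B-like (-0.23), LSEC-like (-0.18) and T-like cells (-0.15), and were at -0.02 in NK-like, 0.06 in pDC-like and 0.05 in phagocyte-like cells. Erythroid markers, genes of another cell type, had 38.3 and 5814 CPM in pDC-like cells of the libraries labelled KO and WT. The part of either in the member values was not tested.

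The differences were small for single members. In B-like cells 1 of 86 members was at least 1.5-fold lower in the library labelled KO, where 4.84% of 9737 genes were, and 0 were higher, where 10.9% were. In LSEC-like cells 0 members passed in either direction (3.31% of genes lower, 4.07% higher), and in T-like cells also 0 (4.42% lower, 11.1% higher). NK-like cells had 1 lower and 1 higher (4.89% and 11.9%), pDC-like cells 1 lower and 0 higher (4.17% and 9.33%) and phagocyte-like cells 2 lower and 0 higher (5.5% and 5.75%). The shares of members past this fold were near or below those of all genes.

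**Figure D3:**
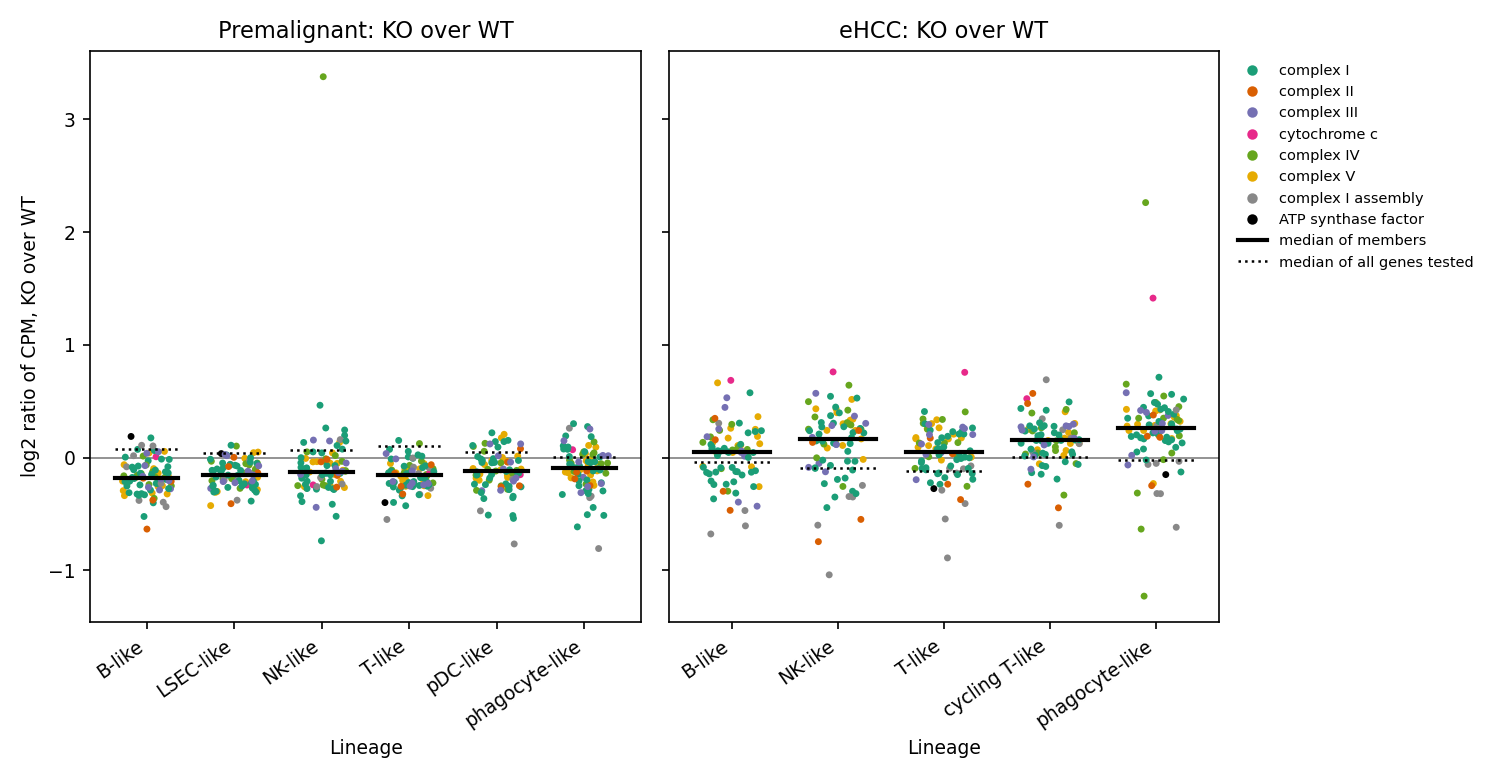
log2 ratio of CPM, KO over WT (vertical axis), of each member with at least 50 UMIs in both libraries together, by lineage (horizontal axis) and stage, coloured by complex. Black bars are medians of the members and dotted bars medians of all genes tested. Members lie mostly below 0 at the premalignant stage and mostly above 0 at eHCC, and the highest point at left is Cox6a2 in NK-like cells.

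By complex, the premalignant sums were below 0 for complex I in all 6 lineages, from -0.17 in B-like to -0.09 in phagocyte-like cells, and for complex V in all 6, from -0.19 to -0.07. Complex III and complex IV ranged from -0.16 to -0.01 and from -0.19 to -0.01. Complex II had the lowest sum of the 5 complexes in each lineage but LSEC-like, with -0.38 (-0.47 to -0.30) in B-like and -0.23 (-0.31 to -0.14) in T-like cells. In NK-like, pDC-like and phagocyte-like cells its interval included 0. Sdha, its flavoprotein subunit, had 78.1 CPM in B-like cells of the library labelled KO and 121 CPM in that labelled WT, a log2 ratio of -0.63 (-0.78 to -0.49) and the only B-like member past 1.5-fold. Ndufv2, a complex I subunit of the NADH-binding module, had 59.9 and 86.0 CPM there (-0.52, -0.69 to -0.35). In LSEC-like cells the lowest members were Atp5g1, a ring subunit of the ATP synthase, with 141 and 190 CPM (-0.43, -0.50 to -0.35), Sdhb, the iron-sulfur subunit of complex II (-0.41), and Ndufa12 (-0.39). Ndufs8, an iron-sulfur subunit of complex I, was lowest in NK-like cells with 53.4 and 89.0 CPM (-0.74, -1.16 to -0.32).

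A few members went the other way. Ndufa3, an accessory subunit of complex I, was above 0 in 5 of 6 lineages, up to 0.28 in phagocyte-like cells. Cox6a1 was above 0 in 5 of 6 as well, between -0.20 and 0.12, and so was Atp5k of complex V, between -0.10 and 0.17. Ndufs1, the large iron-sulfur subunit of complex I, was above 0 in 4 of 6, at 0.17, 0.15, 0.30 and 0.46 (-0.10 to 1.06) in B-like, T-like, phagocyte-like and NK-like cells, all with intervals that include 0. The assembly factor Ndufaf4 was lowest in pDC-like cells (-0.77, 43 against 64 UMIs) and in phagocyte-like cells (-0.81, 24 against 38 UMIs).

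At eHCC, the members were higher in the library labelled KO in each of the 5 lineages compared. The summed log2 ratio was 0.27 in phagocyte-like cells (0.26 to 0.27), 0.21 in NK-like (0.20 to 0.23), 0.15 in cycling T-like (0.13 to 0.16), 0.12 in T-like (0.12 to 0.13) and 0.05 in B-like cells (0.02 to 0.07). In B-like cells the direction turned (-0.05) when called doublets were kept. Members above 0 numbered 74 of 90 in phagocyte-like, 55 of 82 in NK-like, 71 of 85 in cycling T-like, 53 of 86 in T-like and 51 of 81 in B-like cells, where 48.5%, 41.8%, 50.6%, 38.5% and 46.3% of all genes were above 0. Among genes with at least 500 UMIs in both libraries together, the medians in that order were 0.04, 0.08, 0.07, -0.04 and 0.05. Medians of members with that count were 0.28, 0.22, 0.16, 0.07 and 0.08. Of the 81 members tested in all 5 lineages, 35 were above 0 in each (43.2%), where 16.3% of the 5830 genes so tested were. Here too the genes were not matched to the members by UMI count. No B-like cluster had 100 cells in both eHCC libraries. In cluster 19 the summed members had 12924 CPM (12781 to 13067, 495 cells) under the KO label and 13264 CPM (12681 to 13867, 37 cells) under the WT label, intervals that overlap.

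Past 1.5-fold, phagocyte-like cells had 4 members higher and 3 lower (14.9% and 18.7% of 11188 genes), NK-like cells 2 and 3 (8.73% and 15.9%), B-like cells 2 and 2 (7.51% and 11.6%), cycling T-like cells 1 and 1 (7.01% and 8.55%) and T-like cells 1 and 1 (8.04% and 18.7%). The phagocyte-like sum thus came from many members below this fold.

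Complexes III, IV and V had sums above 0 in all 5 lineages at eHCC. For complex IV in B-like cells the interval included 0 (0.04, -0.0035 to 0.09). Complex V ranged from 0.14 in B-like to 0.27 in phagocyte-like cells, with 12 of 15 to 14 of 15 of its members above 0. Atp5b, the catalytic beta subunit, had 306, 319, 440.9 and 329 CPM in phagocyte-like cells and 285, 322, 384 and 242 CPM in B-like cells. The KO eHCC library was thus highest of the 4 in both, and the KO over WT ratio at eHCC was between 0.34 and 0.66 over the 5 lineages, against -0.29 to -0.06 over the 6 premalignant ones. In complex IV, Cox7a2 had 381, 412, 514 and 329 CPM in NK-like cells (log2 0.64 at eHCC, 0.52 to 0.77) and ranged from 0.14 to 0.64. In complex III, Uqcrq ranged from 0.19 to 0.57, with 197, 211, 220 and 148 CPM in NK-like cells. Its core subunit Uqcrc1 ranged from 0.27 to 0.58.

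Complex I was less uniform. Its sum was 0.27 in phagocyte-like cells, with 34 of 36 members above 0, and 0.15 and 0.14 in NK-like and cycling T-like cells. It was 0.06 in T-like cells and -0.06 (-0.10 to -0.01) in B-like cells, with 18 of 36 members above 0 in both. Ndufs4, an accessory subunit of the NADH-binding part, had 86.3, 106, 123 and 75.0 CPM in phagocyte-like cells, a ratio of 0.71 at eHCC (0.63 to 0.80), and was above 0 in all 5 lineages. Within the matched phagocyte-like clusters 12 and 20 the Ndufs4 ratio was 0.40 and 0.40. Ndufv1, which binds NADH, was the highest complex I member in B-like cells (0.58, 0.09 to 1.07) and ranged down to -0.19 in the other lineages.

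Cycs was among the 3 members with the highest ratio in each of the 5 lineages at eHCC, and the highest in B-like, NK-like and T-like cells. In phagocyte-like cells Cycs had 245, 233, 302 and 113 CPM. The low value was that of the WT eHCC library, and the ratio there was log2 1.41 (1.35 to 1.48, 3807 against 5097 UMIs), or 2.67-fold. Cycs had 210, 248, 277 and 164 CPM in NK-like, 142, 156, 216 and 128 CPM in T-like and 115, 114, 159 and 98.8 CPM in B-like cells. In these lineages too, the KO eHCC library was the highest of the 4 and the WT eHCC library the lowest. The ratios at eHCC were 0.76 (0.58 to 0.94) in NK-like, 0.76 (0.69 to 0.83) in T-like and 0.69 (0.43 to 0.95) in B-like cells. In cycling T-like cells Cycs had 262, 288, 392 and 273 CPM, a ratio of 0.52 (0.40 to 0.64). That ratio turned to -0.08 in 1 random draw of cells thinned to 1000 UMIs, and was 0.40 with each cell weighted equally. In a separate draw to that depth, Cycs was detected in 25.3% and 16.7% of cycling T-like cells. At the premalignant stage the 6 ratios lay between -0.24 and 0.07, and that in NK-like cells (-0.24) turned to 0.29 in the thinned cells. The most Cycs UMIs in 1 phagocyte-like cell were 31 of 3807 and 21 of 5097 at eHCC.

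**Figure D4:**
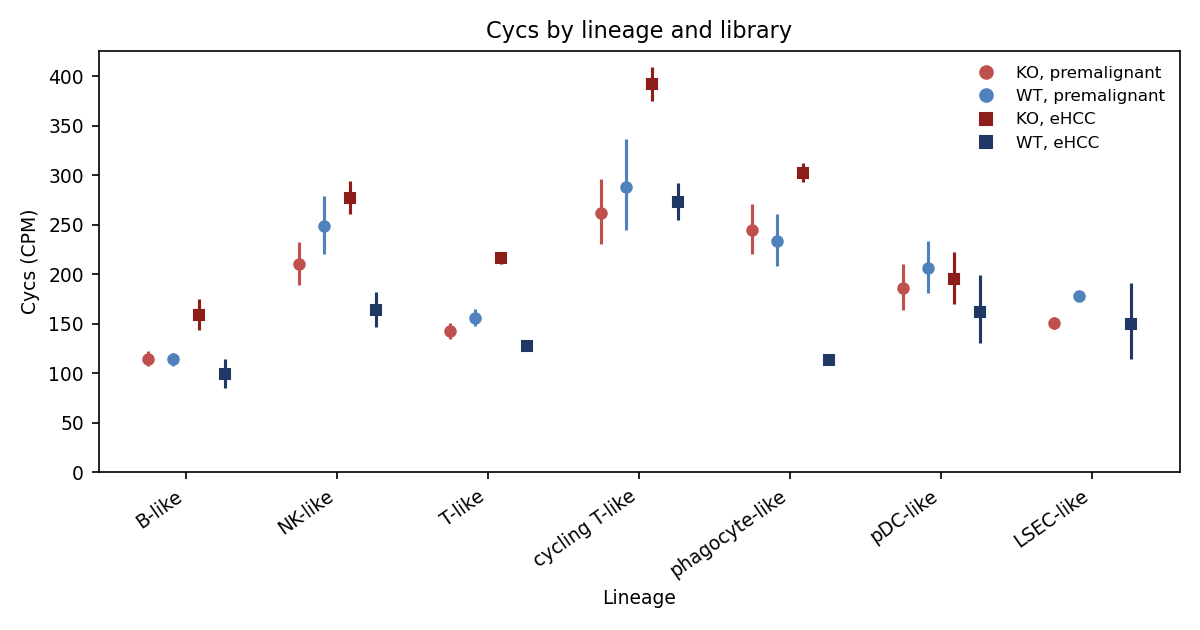
Cycs in CPM (vertical axis) by lineage (horizontal axis), with a point for each library with at least 20 cells and bars for the exact 95% Poisson interval. In B-like, NK-like, T-like, cycling T-like and phagocyte-like cells the KO eHCC point is the highest, and in phagocyte-like cells it is at 302 CPM against 113 CPM in the WT eHCC library.

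The libraries did not hold the same clusters of these lineages at eHCC. The largest T-like cluster was cluster 4 in the library labelled KO (2000 of 4019) and cluster 2 in that labelled WT (1577 of 2995). B-like cells were mostly cluster 19 (495 of 510) against cluster 0 (332 of 369). Phagocyte-like cells were mostly cluster 12 (739 of 997), led by Plac8 and Ace, against cluster 6 (1642 of 3011), led by Fcrls and Ms4a7, and cluster 13 (931). Within the 7 named clusters with at least 100 cells in both eHCC libraries, the summed members were above 0 in 7, from 0.01 to 0.24. In the T-like clusters 9 and 15 the intervals included 0 (0.01, -0.0071 to 0.03, and 0.01, -0.0065 to 0.04), with 38 of 82 and 37 of 83 members above 0 and medians of -0.02 and -0.04. The mean over the matched T-like clusters was 0.055, beside 0.12 for the class. Cycs was above 0 in 7 of 7, from 0.52 to 0.88, with 0.74 in cluster 12 and 0.61 in cluster 20 of the phagocytes, beside 1.41 for the class. At the premalignant stage the summed members were below 0 in 10 of 11 named clusters, with 0.02 in the LSEC-like cluster 8, whose cells had medians of 1512 and 1795.5 UMIs. Of the unnamed clusters, 11 and 18 were at -0.10 and -0.14, and cluster 5 was at 0.08.

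Sdha was lower in the library labelled KO at both stages in every lineage compared. In T-like cells Sdha had 84.8, 106, 73.3 and 94.9 CPM, and in NK-like cells 87.4, 105, 59.8 and 100.3 CPM. In both lineages each library labelled KO was below each library labelled WT. At eHCC the ratio was -0.75 (-1.02 to -0.47) in NK-like cells and between -0.75 and -0.25 over the 5 lineages, and at the premalignant stage between -0.63 and -0.08 over 6. In LSEC-like cells of the premalignant stage it turned to 0.10 in thinned cells. Within the 7 matched eHCC clusters Sdha was below 0 in 7, from -0.75 to -0.31, and within the 11 premalignant ones in 10, with 0.07 in the LSEC-like cluster 8. The other complex II members differed at eHCC. Sdhb, with 78.5, 93.7, 88.2 and 78.2 CPM in T-like cells, ranged from 0.17 to 0.57 over 5 lineages, and Sdhd, a membrane anchor, from 0.03 to 0.48. Sdhc, the other anchor, was below 0 in 4 of 5, from -0.55 to 0.19. Complex II as a sum was at -0.19 (-0.34 to -0.05) in NK-like, -0.12 in B-like and -0.09 in T-like cells, and at 0.22 and 0.15 in cycling T-like and phagocyte-like cells.

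Cox7a2l, a factor of respiratory supercomplexes that does not act as a usual complex IV subunit, was the other member tested in all 5 eHCC lineages that was below 0 in each, between -0.33 and -0.25. Cox7a2l had 352, 386, 420.5 and 502 CPM in T-like cells and 294, 377, 450.1 and 553 CPM in B-like cells, so that both eHCC libraries were above both premalignant ones. The summed assembly factors were lower in lymphocytes of the library labelled KO at eHCC: -0.46 (-0.64 to -0.27) in NK-like, where 0 of the 5 tested were above 0, -0.23 (-0.29 to -0.17) in T-like, with 0 of 8, and -0.24 (-0.48 to -0.0031) in B-like cells, with 1 of 4. In cycling T-like and phagocyte-like cells they were at 0.17 and 0.01. Ndufaf4 was at -1.04 in NK-like cells (56 against 63 UMIs, 14.6 against 30.0 CPM), and Ndufaf1 at -0.89 in T-like cells (138 against 161 UMIs, 4.82 against 8.94 CPM).

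The mt- genes had the opposite sign at eHCC. The log2 ratio of the 13 genes summed, KO over WT, was -0.73 in phagocyte-like, -0.57 in T-like, -0.54 in NK-like, -0.36 in cycling T-like and -0.25 in B-like cells, beside the positive sums of the nuclear members. All 13 were below 0 in phagocyte-like, T-like and NK-like cells, and 11 of 13 were at least 1.5-fold lower in phagocyte-like cells, where 18.7% of all genes were. Within the 7 matched clusters the mt- sums were below 0 in 7, from -0.59 to -0.36, with -0.38 and -0.49 in the phagocyte-like clusters 12 and 20 beside -0.73 for the class. By complex, nuclear and mitochondrial sums in phagocyte-like cells were 0.27 and -0.93 for complex I, 0.22 and -1.11 for complex III, 0.26 and -0.60 for complex IV and 0.27 and -0.78 for complex V. The ratio of member to mt- UMIs in phagocyte-like cells was 0.594, 0.520, 0.620 and 0.311. The WT eHCC library was thus the low one, and the same held in T-like (0.339, 0.335, 0.470 and 0.291) and NK-like cells (0.490, 0.496, 0.530 and 0.314). CPM are shares of a total that includes the mt- genes. With mt-, ribosomal protein and haemoglobin genes taken out of the total, the member sums at eHCC were 0.23, 0.15, 0.10, 0.06 and 0.03 in phagocyte-like, NK-like, cycling T-like, T-like and B-like cells.

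**Figure D5:**
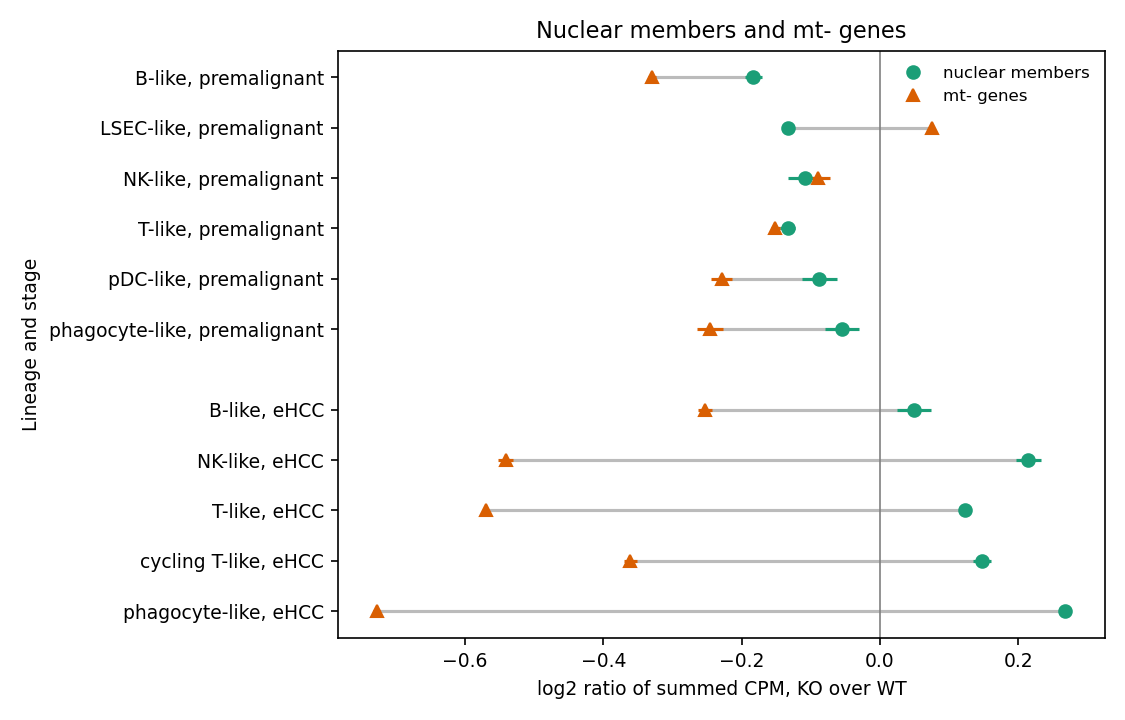
log2 ratio of summed CPM, KO over WT (horizontal axis), of the nuclear members (circles) and the 13 mt- genes (triangles) by lineage and stage (vertical axis), with 95% counting intervals. At eHCC every circle lies right of 0 and every triangle left of it, from -0.73 to -0.25, while most premalignant pairs lie left of 0 together.

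At the premalignant stage the mt- sums were -0.33 in B-like, -0.25 in phagocyte-like, -0.23 in pDC-like, -0.15 in T-like and -0.09 in NK-like cells, below 0 as the nuclear members were. LSEC-like cells had 0.07 for the mt- genes beside -0.13 for the members. Their clusters 1, 3 and 8 differed, with 0.02, 0.18 and -0.22 for the mt- genes and -0.14, -0.16 and 0.02 for the members. Cluster 8 made up 23.9% and 17.2% of LSEC-like cells in the libraries labelled KO and WT. The median mitochondrial share per phagocyte-like cell was 2.94%, 3.24%, 3.21% and 5.18%, and its part in these ratios was not tested.

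Other lists of the same metabolism were set beside the members. Glycolysis genes were higher in the library labelled KO at eHCC: the list, chosen with earlier results of these data known, summed to 0.88 in phagocyte-like, 0.79 in NK-like, 0.68 in cycling T-like, 0.64 in T-like and 0.14 in B-like cells, with 10 of 14 genes tested at least 1.5-fold higher in phagocyte-like cells (14.9% of all genes). Ldha, which makes lactate from pyruvate, had 512 and 220 CPM there. At the premalignant stage the glycolysis sum was at or below 0, from -0.26 in B-like to -0.01 in NK-like cells. The tricarboxylic acid cycle list was near 0 at eHCC in T-like (0.00), B-like (0.07) and NK-like cells (-0.10) and at 0.21 in phagocyte-like cells, with 11 of 13 above 0. Mitochondrial ribosomal protein genes were at -0.18, -0.15 and -0.11 in B-like, T-like and NK-like cells and at 0.13 in phagocyte-like cells. The assembly factors outside the symbol rule were between -0.14 and 0.18. Carriers and antioxidant genes were at 0.33 in phagocyte-like cells, where Sod2, the mitochondrial superoxide dismutase, had 204 and 107 CPM. Among regulators, Gabpb1, the partner of GABPA, had 44.1 and 22.4 CPM in T-like cells (log2 0.98), while Nrf1 was at 0.28 there.

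RNA from other cells moved with the same comparisons. The summed erythroid markers in T-like cells had 44.4, 185, 3484 and 337 CPM, and in phagocyte-like cells 29.0, 116, 6355 and 113 CPM, so the KO eHCC library was far above the other libraries. Hepatocyte markers had 115, 162, 9.22 and 159 CPM in T-like cells and 83.6, 118, 30.6 and 110 CPM in phagocyte-like cells, with the KO eHCC library lowest. Their part in the member values was not tested. Cluster 5, left unnamed for its low depth and led by hepatocyte genes, had member sums of 67512 and 63895 CPM in the premalignant libraries (925 and 852 barcodes). Its KO over WT log2 ratio was 0.08 (0.07 to 0.09), above 0 unlike the sums of the premalignant lineages compared. There 58 of 84 members were above 0, with a median of 0.05, as for all genes tested (0.05). Clusters kept out of a class for their leading genes held 224, 209, 29 and 828 cells (cluster 11, T cell markers), 4, 3, 749 and 10 (cluster 16, T cell markers), 236, 356, 6 and 7 (cluster 18, LSEC markers) and 0, 0, 7 and 448 (cluster 23, phagocyte markers). Put back, the eHCC sums were 0.10 in T-like and 0.22 in phagocyte-like cells, and the Cycs ratios 0.68 and 1.26.

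Between stages, within a genotype label, the members were higher at eHCC in the libraries labelled KO: 0.27 in T-like (0.27 to 0.28), 0.21 in phagocyte-like (0.19 to 0.23), 0.18 in NK-like (0.16 to 0.19) and 0.10 in B-like cells (0.08 to 0.12). Members above 0 numbered 69 of 86, 67 of 86, 53 of 83 and 45 of 86, where 29.0%, 37.4%, 23.2% and 20.9% of all genes were. In the libraries labelled WT the sums were -0.15 in NK-like (-0.17 to -0.12), -0.13 in B-like (-0.15 to -0.11), -0.11 in phagocyte-like (-0.13 to -0.10) and 0.02 in T-like cells (0.01 to 0.03). Centred on the median of all genes tested, which was -0.37, -0.18, -0.42 and -0.43, the KO sums were 0.65, 0.39, 0.59 and 0.53 in T-like, phagocyte-like, NK-like and B-like cells. The WT directions turned with this scaling: with medians of -0.23, -0.22 and -0.22, they were 0.08, 0.09 and 0.11 in NK-like, B-like and phagocyte-like cells, while T-like cells were at 0.15. Over the mean of matched clusters, T-like cells were at -0.09. The classes also held different clusters by stage. Under the KO label, B-like cells were 98.5% cluster 0 when premalignant and 97.1% cluster 19 at eHCC. T-like cluster 4 went from 0.53% to 49.8% there. Under the WT label, phagocyte-like cluster 12 went from 91.8% to 6.88%. Within named clusters with at least 100 cells at both stages, the sums were above 0 in 4 of 4 under KO (0.15 to 0.23). They were below 0 in 6 of 6 under WT (-0.15 to -0.05). The stage comparisons use the same 4 libraries as those between labels and add no independent samples.

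Past 1.5-fold between stages under the KO label, 12 of 86 members were higher and 2 lower in phagocyte-like cells (11.7% and 24.1% of genes), and 2 and 2 in T-like cells (8.51% and 37.4%). NK-like cells had 3 higher and 5 lower (5.51% and 38.3%) and B-like cells 1 and 3 (3.36% and 39.4%). Most genes tested had lower CPM at eHCC. Under the WT label, 0 and 8 members were past this fold in B-like (3.62% and 20.7%), 3 and 1 in NK-like (5.78% and 20.4%), 4 and 5 in phagocyte-like (14.8% and 27.1%) and 0 and 0 in T-like cells (8.09% and 14.2%). CPM are shares of a total. The summed cytosolic ribosomal protein genes were at 0.43, 0.55, 0.17 and -0.01 in B-like, NK-like, T-like and phagocyte-like cells under the KO label. Under the WT label they were at 0.19, 0.62, 0.08 and 0.10. The mt- sums in that order were 0.37, 0.06, -0.20 and 0.15 under KO and 0.30, 0.51, 0.22 and 0.63 under WT. Their part in the stage ratios was not tested.

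Members were also followed singly across the stages. In T-like cells 47 of 86 members were below 0 in the premalignant comparison of labels and above 0 at eHCC, 31 were below 0 at both, 6 above 0 at both and 2 went from above to below. For 30 of the 47, both counting intervals left out 0, among them Cycs, Atp5b, Cox7a2, Ndufs4, Sdhb and Uqcrc1. In phagocyte-like cells 51 of 81 went from below to above, in NK-like cells 45 of 81 and in B-like cells 40 of 81, with 9, 11 and 9 members whose intervals left out 0 at both stages. Of all genes tested at both stages, 13.8%, 28.9%, 17.8% and 16.5% went from below to above in the T-like, phagocyte-like, NK-like and B-like class, against 54.7%, 63.0%, 55.6% and 49.4% of the members. With both intervals leaving out 0, the shares of all genes were 4.09%, 4.44%, 2.47% and 2.31%, against 34.9%, 11.1%, 13.6% and 11.1% of the members. The member shares were thus above those of all genes in these 4 lineages. Whether an interval leaves out 0 depends on the UMI count as well as on the ratio. Shares among genes with counts like those of the members were not taken.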

How the data were processed

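The files hold the authors' deposited UMI counts per gene and barcode, with no normalization, from Cell Ranger (3.0.1 per the file headers). The submitters' processing notes also name bcl2fastq 2.20.0 and the builds mm10 and GRCh38. Barcodes with at least 500 UMIs, 300 genes and at most 25% mt- UMIs were kept. Doublets were called by score at 0.8% per 1000 cells, 7.38%, 10.8%, 6.48% and 7.73% by library. Cells were clustered (scanpy 1.11.5, 2000 variable genes, 40 components, resolution 1.0) into 48 clusters. Counts were summed per lineage and library and given as CPM with exact Poisson intervals, and ratios with exact conditional binomial intervals (scipy 1.17.1, 95%). Genes with at least 50 UMIs in both libraries together were compared. The ratio code was tested on simulated data. Named genes are the 3 highest and 3 lowest members per lineage and a fixed panel. Ndufa3, Ndufs4, Atp5k, Cox6a1, Cox7a2, Sdhc, Uqcrq, Cox6b2, Sod2 and Gabpb1 were also followed across lineages after their values were seen. Members and lists were chosen with earlier results of these data known. Alternatives varied cell filters, doublets, scaling, weighting, thinning, minimums, fold and lineage assignment.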

Additional observations from a re-analysis of the deposited data

Results flagged for a closer look

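The summed members had opposite signs in the comparisons of genotype labels at the 2 stages in 4 lineages. The B-like sign at eHCC turned with doublets kept, and the phagocyte-like sign at the premalignant stage turned in thinned cells. The log2 ratio of KO over WT at eHCC minus that at the premalignant stage was 0.23 in B-like, 0.32 in NK-like, 0.26 in T-like and 0.32 in phagocyte-like cells. With 1 library in each group the difference was not tested.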

How the results depend on the processing

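No paired analysis was possible because each group held 1 library. Leaving out a replicate was not possible for the same reason, and depth limits every ratio to its counting interval. A value counted as moved when it left the 95% counting interval of the main value. Over all alternatives, 99 summed ratios stayed within it, 81 moved and 7 took the other sign, counted where the main interval left out 0. Named genes stayed in 1997 cases, moved in 209 and took the other sign in 15, medians in 116, 82 and 10. Ratios of members to mt- genes stayed in 18 cases and moved in 51. Counts past 1.5-fold stayed within 1.5 times in 149 cases and moved in 78. The cause was not tested. The last 2 settings were chosen after seeing the data. Ratios of summed members are given in log2, by comparison. With mt-, ribosomal protein and haemoglobin genes out of the total, premalignant KO over WT was -0.29 in B-like, -0.15 in LSEC-like and -0.20 in T-like, and eHCC KO over WT was 0.15 in NK-like, 0.065 in T-like, 0.095 in cycling T-like and 0.23 in phagocyte-like. Under it, the sums for KO stage were 0.32 in B-like, 0.35 in NK-like and 0.34 in T-like. The sums for WT stage were -0.0094 in B-like, 0.085 in NK-like, 0.070 in T-like and -0.055 in phagocyte-like. Medians were -0.0067 in T-like for eHCC KO over WT, and 0.032 in NK-like and 0.018 in T-like for WT stage. Genes with the other sign there were Cox4i1 -0.0030 in phagocyte-like (eHCC KO over WT). Centred on the median of all genes, premalignant KO over WT was -0.26 in B-like, -0.17 in LSEC-like, -0.17 in NK-like, -0.23 in T-like and -0.13 in pDC-like, and eHCC KO over WT was 0.086 in B-like, 0.30 in NK-like, 0.24 in T-like and 0.29 in phagocyte-like. Under it, KO stage was 0.53 in B-like, 0.59 in NK-like, 0.65 in T-like and 0.39 in phagocyte-like, and WT stage was 0.094 in B-like, 0.080 in NK-like, 0.15 in T-like and 0.11 in phagocyte-like, and for medians, WT stage was 0.015 in B-like, 0.027 in NK-like, 0.095 in T-like and 0.14 in phagocyte-like. Genes with the other sign there were Ndufa4 0.021 in T-like (eHCC KO over WT). With each cell weighted equally, premalignant KO over WT was -0.17 in B-like, -0.099 in LSEC-like, -0.17 in T-like and -0.030 in phagocyte-like, and eHCC KO over WT was 0.18 in NK-like, 0.11 in T-like and 0.30 in phagocyte-like. Under it, KO stage was 0.30 in T-like and 0.26 in phagocyte-like, and WT stage was -0.067 in phagocyte-like. With cells assigned by marker UMIs alone, premalignant KO over WT was -0.14 in B-like, -0.097 in T-like and -0.15 in pDC-like, and eHCC KO over WT was 0.0011 in B-like, 0.33 in NK-like and 0.14 in T-like. Under it, the sums for KO stage were 0.066 in B-like, 0.30 in NK-like and 0.25 in phagocyte-like. The sums for WT stage were -0.074 in B-like, 0.038 in T-like and -0.059 in phagocyte-like. The median for KO stage was -0.017 in B-like. Thinned to 1000 UMIs per cell, premalignant KO over WT was -0.17 in B-like, -0.11 in LSEC-like and 0.030 in phagocyte-like, and for medians, premalignant KO over WT was 0.032 in phagocyte-like. Under it, eHCC KO over WT was 0.16 in NK-like, 0.10 in T-like, 0.13 in cycling T-like and 0.30 in phagocyte-like, and KO stage was 0.26 in T-like and 0.25 in phagocyte-like, and WT stage was -0.12 in NK-like and -0.025 in phagocyte-like. Genes with the other sign there were Atp5a1 0.013 in B-like, Cox4i1 0.045 in LSEC-like, Cox6c 0.0058 in LSEC-like, Sdha 0.10 in LSEC-like, Cox6a2 -0.36 in NK-like, Cox7a2l 0.036 in NK-like, Cycs 0.29 in NK-like and Ndufa8 0.067 in phagocyte-like (premalignant KO over WT) and Ndufaf2 0.20 in NK-like, Ndufv1 0.17 in T-like, Atp5e -0.0035 in cycling T-like, Cyc1 -0.38 in cycling T-like and Cycs -0.077 in cycling T-like (eHCC KO over WT). With doublets kept, premalignant KO over WT was -0.12 in LSEC-like, and eHCC KO over WT was -0.046 in B-like. Under it, the sum for KO stage was 0.24 in phagocyte-like, and the sums for WT stage were -0.037 in B-like and -0.12 in NK-like. The median for eHCC KO over WT was -0.064 in B-like. With a mitochondrial limit of 10%, eHCC KO over WT was 0.11 in T-like and 0.26 in phagocyte-like, and KO stage was 0.26 in T-like. With no mitochondrial limit, eHCC KO over WT was 0.14 in T-like, and KO stage was 0.29 in T-like. With unnamed clusters put back, premalignant KO over WT was -0.13 in LSEC-like, and eHCC KO over WT was 0.096 in T-like and 0.22 in phagocyte-like. Under it, KO stage was 0.25 in T-like, and WT stage was -0.065 in phagocyte-like. As the mean over clusters with 100 cells in both libraries, premalignant KO over WT was -0.17 in B-like, -0.094 in LSEC-like and -0.17 in T-like, and eHCC KO over WT was 0.055 in T-like and 0.22 in phagocyte-like. Under it, KO stage was 0.18 in T-like and 0.23 in phagocyte-like, and WT stage was -0.090 in T-like and -0.052 in phagocyte-like.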
